A study of Mus musculus with 16 samples.

Results

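Interferon-induced genes are switched on when a cell receives an interferon signal, and 9 of them were followed through 3 groups of mouse ileal epithelium: Ifitm3, Irgm1, Mx2, Ifi204, Irf1, Irf7, Isg15, Ifit1 and Ifit3. They were found by the platform annotation: every probe set whose only gene symbol is 1 of these 9 was taken, which gave 12 probe sets of 12488 on the array and 9 genes of 8251 with a probe set of their own. The groups were carcinoma (5 arrays), adenoma (5 arrays) and WT (6 arrays), each array made from ileal epithelial cells cut from tissue by laser capture microdissection, with RNA amplified in 2 rounds before hybridisation to an Affymetrix MG_U74Av2 oligonucleotide array. An adenoma is a benign and a carcinoma an invasive tumour of the epithelium. The sample titles name 1 group WT, for wild type. Beyond that label, the sources used here give no genotype, strain or age for the mice. They give no allele or agent behind the tumours, no account of how regions were chosen for capture, and no count of animals. Tumour and WT arrays may thus differ in genotype as well as in tissue, and these cannot be told apart. No label ties an array to an animal, so arrays of 1 group may share animals, and all p-values below are then too small.

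Interferons are secreted antiviral and immune signals. Type I interferons act through the receptor chains Ifnar1 and Ifnar2 and a complex that holds Irf9 and binds the interferon-stimulated response element (ISRE) in promoters, whereas interferon-gamma acts through Ifngr1 and Ifngr2 on genes with a gamma-activated site (GAS). In the gut, interferon-gamma comes mainly from lymphocytes in and below the epithelium, and epithelial cells answer it with antigen presentation and antimicrobial genes.

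Epithelial genes were read in every group. All 12 epithelial markers, among them Cdh1, Epcam, Krt8 and Vil1, were above the floor in each group, 2 of the 12 were lower in each tumour, and their mean log2 signal per array was 11.01 to 11.77 in carcinoma, 11.28 to 11.67 in adenoma and 11.63 to 12.39 in WT. Over all genes tested, 4.9% were lower in carcinoma and 4.25% in adenoma. The floor is the 25th percentile of all values, a signal of 46.9, and lower values were set to it, so differences of dim genes are understated. Hybridisation controls differed between the groups: the mean log2 signal of the spike-in transcripts was 11.56 to 12.70 in carcinoma, 11.38 to 13.47 in adenoma and 12.44 to 14.73 in WT, and 4 WT arrays (1, 2, 4 and 5) exceeded the highest tumour value. The log2 ratio of 3' to 5' Gapdh signal, a measure of RNA quality, was 4.95 to 6.45 in carcinoma, 5.52 to 6.12 in adenoma and 4.09 to 5.02 in WT. The part of these controls in the results below was not tested beyond the values given with each, and since cells were captured in bulk, fewer cells of a type and less RNA per cell cannot be told apart.

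Of the 9 genes, 8 were bright enough to test. In adenoma against WT, 1 rose (Ifitm3) and 3 fell (Irgm1, Mx2 and Ifi204) at a limma adjusted p of 0.05, where 8.28% of all 7455 genes tested passed, 4.02% higher and 4.25% lower. In carcinoma against WT, Ifitm3 again rose and 0 of the 8 fell by limma (at an unadjusted p of 0.05, Irgm1 and Mx2 were lower), against 9.05% of all genes, 4.16% higher and 4.9% lower. Low unadjusted p were common over all genes in both comparisons. Ifit3 ranked 1946 of the 7455 genes at a limma unadjusted p of 0.0606 in carcinoma, and 1442 at 0.0338 in adenoma. Both comparisons use the same 6 WT arrays. Between carcinoma and adenoma, 0 of the 8 passed by limma (1 at an unadjusted p of 0.05, Irgm1), and 0.0268% of all genes did. The median log2 fold change of the 8 was -0.55 in carcinoma and -0.72 in adenoma against WT, beside -0.14 for all genes in each comparison.

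The promoters of these genes are shown because interferon factors act on them, and because Ifitm3 and Irgm1, which moved in opposite directions in adenoma, carry the same letters near their start sites. RefSeq promoters of build GRCm38.p6, 250 bases before to 50 after each annotated start, were found for 7 of the 9 genes. The ISRE pattern of GAAA, any 2 bases and GAAA again, read on both strands and with overlapping matches counted, occurred in 5 of the 7, against 3.99% of 27025 genes with a promoter. In the stretches below, read 5' to 3' on the strand of the gene, capitals mark ISRE letters or, for Irf1, GAS letters:
Ifitm3, chr7:141010714-141010743, minus strand, from base 2 to 31 after the start: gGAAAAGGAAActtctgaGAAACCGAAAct
Irgm1, chr11:48871425-48871460, minus strand, from -40 to -5: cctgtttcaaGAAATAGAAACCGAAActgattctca
Isg15, chr4:156200865-156200906, minus strand, from -88 to -47: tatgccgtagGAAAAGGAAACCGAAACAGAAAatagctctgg
Ifit1, chr19:34640775-34640823, plus strand, from -114 to -66: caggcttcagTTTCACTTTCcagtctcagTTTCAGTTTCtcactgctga
Ifit3, chr19:34583363-34583426, plus strand, from -166 to -103: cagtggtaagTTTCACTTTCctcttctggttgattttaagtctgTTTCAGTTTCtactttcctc
Irf1, chr11:53769914-53769942, plus strand, from -100 to -72: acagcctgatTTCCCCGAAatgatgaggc
Irgm1 held 2 overlapping matches, Isg15 3, and Ifit1 and Ifit3 2 each on the opposite strand. The GAS letters TTCNNNGAA, the same on both strands, occurred in Irf1 and, overlapping the second ISRE match, in Ifitm3, against 9.55% of genes. Neither motif was in the Irf7 window, which says nothing of the factors. Over all genes tested that had a RefSeq promoter, 228 held the ISRE letters. In carcinoma against WT, 9 of these were higher (3.95%) and 12 lower (5.26%), against 4.16% and 4.96% of the 5747 genes without the letters, with medians of -0.11 and -0.13. In adenoma against WT, 8 were higher (3.51%) and 12 lower (5.26%), against 3.86% and 4.07%, with a median of -0.13 in both sets. These shares lie near those of the genes without the letters. A match is a run of letters, and no binding was measured.

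**Figure D1:**
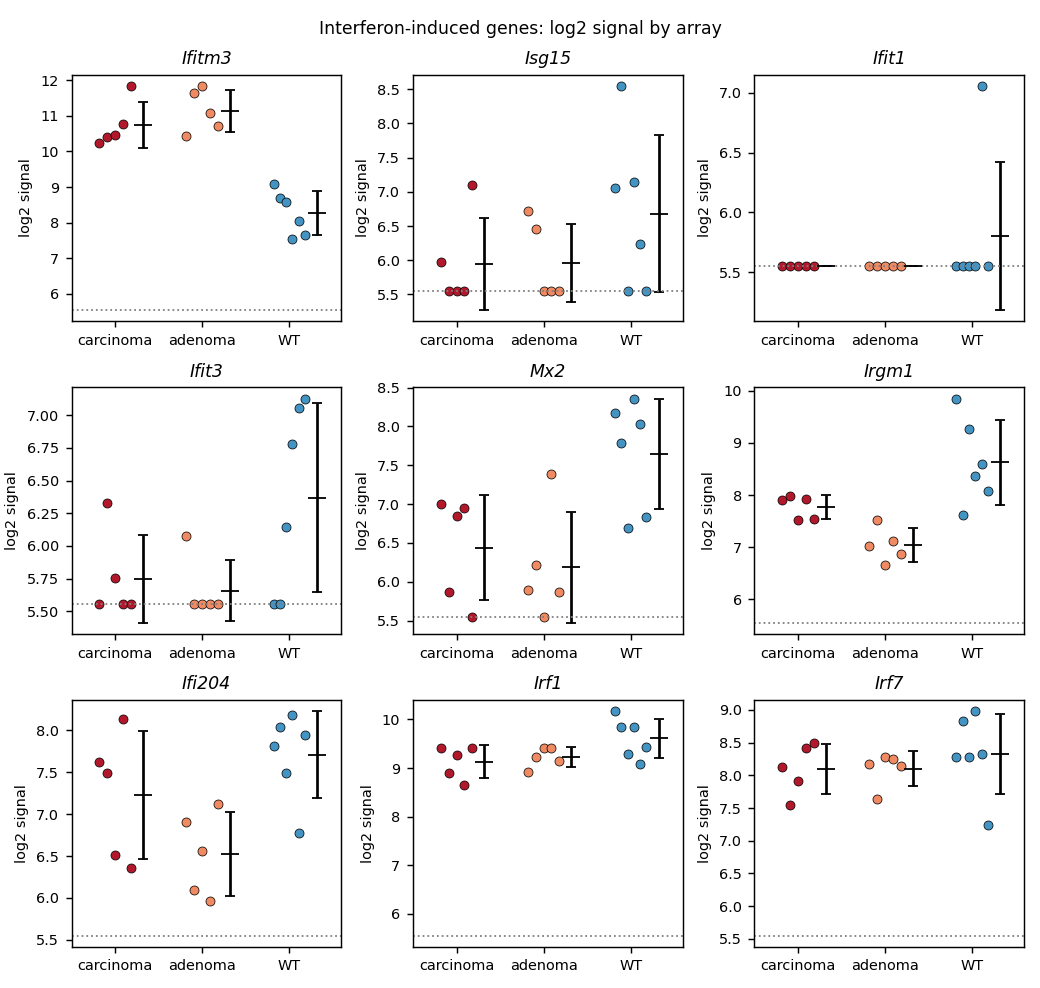
Log2 signal of the brightest probe set of each of the 9 genes on every array (points; the vertical axis of each panel has its own range), with mean and SD at the right of each group and the floor as a dotted line. Ifitm3 lies higher on all 10 tumour arrays than on all 6 WT arrays, and Ifit1 lies at the floor on 15 of 16 arrays.

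Ifitm3 encodes a small membrane protein that blocks viruses from entering through endosomes, and it is also known as a gene with raised levels in intestinal tumours. Its signal was 1214.9, 1345.4, 1415.5, 1758.4 and 3646.8 in carcinoma, 1381.3, 3180.9, 3679.4, 2153.8 and 1675.4 in adenoma, and 184.7 to 540.6 with a median of 325.05 in WT. Neither tumour group overlapped WT, which 3.13% of all genes showed upward in carcinoma and 3.06% in adenoma. The gene was 5.57-fold higher in carcinoma than in WT (log2 2.48 ± 0.36, SE, limma adjusted p = 0.000156) and 7.33-fold higher in adenoma than in WT (2.87 ± 0.36, adjusted p = 4.14e-05). The tumour groups overlapped, and carcinoma minus adenoma was -0.40 with a 95% interval of -1.18 to 0.39 (adjusted p = 1). The rise passed in all 27 alternative settings in both comparisons, with log2 fold changes of 2.21 to 2.80 in carcinoma and 2.70 to 3.19 in adenoma.

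The other measured genes of the IFITM family did not pass. Ifitm2, the close relative with the same antiviral role, differed by -0.08 in carcinoma (adjusted p = 0.900) and 0.04 in adenoma (adjusted p = 0.954). Ifitm1 differed by -1.02 in carcinoma (adjusted p = 0.0604) and -0.69 in adenoma (adjusted p = 0.220). Ifitm6 and Ifitm10 lay between -0.73 and -0.14 in carcinoma and between -1.23 and -0.20 in adenoma. Of the 5 IFITM genes tested, Ifitm3 alone rose and 0 fell in either tumour group. Over all genes tested, 4.16% rose in carcinoma and 4.02% in adenoma. Whether Ifitm3 differs from its relatives was not tested.

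Irgm1 is an immunity-related GTPase, induced by interferon-gamma, that controls other GTPases of its family and the clearance of bacteria inside cells. Its signal was 239.1, 252.6, 183.7, 244.3 and 185.1 in carcinoma, 130.7, 183.8, 100.9, 138.3 and 116.2 in adenoma, and 195.5 to 922.6 with a median of 357.6 in WT. Every adenoma array lay below every WT array, as for 2.74% of all genes, while carcinoma overlapped both groups. Irgm1 was 3.01-fold lower in adenoma than in WT (log2 -1.59 ± 0.33, limma adjusted p = 0.00483). It was lower in carcinoma by 0.85 ± 0.33 without passing (log2 -0.85, adjusted p = 0.119). Carcinoma minus adenoma was 0.74 with a 95% interval of 0.01 to 1.46, at an unadjusted p of 0.0468 and an adjusted p of 1. The call in adenoma was lost with the Gapdh ratio (log2 -1.28, adjusted p = 0.481) or the spike-in signal (log2 -1.49, adjusted p = 0.0545) as a covariate. Without WT 2, the dimmest WT array for this gene, carcinoma also passed (log2 -1.06, adjusted p = 0.0483).

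Mx2 belongs to the Mx family of dynamin-like antiviral GTPases, and RefSeq annotates it as a transcribed pseudogene in the reference strain C57BL/6J. Its signal was 127.5, 58.3, 114.6, 123.2 and 44.0 in carcinoma, 59.6, 74.6, 37.1, 167.2 and 58.4 in adenoma, and 103.5 to 327.9 with a median of 240.95 in WT. Adenoma 4 was the only adenoma array inside the WT range, and 3 carcinoma arrays were inside it. Mx2 was 2.75-fold lower in adenoma (log2 -1.46 ± 0.40, limma adjusted p = 0.0285). It differed by -1.20 ± 0.40 in carcinoma, which did not pass (adjusted p = 0.0669). The related Mx1 differed by -0.23 in carcinoma and -0.03 in adenoma and did not pass (adjusted p = 0.786 and 0.980). The adenoma call ended when adenoma 1, 2, 3 or 5, or WT 1, 2, 4 or 5, was left out (log2 -1.47 to -1.30, adjusted p = 0.0510 to 0.0813). When WT was reduced to arrays 3 and 6, those of lower spike-in signal, the value was -0.58 (adjusted p = 0.702). It was -0.60 with the Gapdh covariate (adjusted p = 0.811), -0.68 with the spike-in covariate (adjusted p = 0.437) and -0.73 with a floor at the 40th percentile (adjusted p = 0.0971). Quantile normalization and aligned medians also ended the call, at -1.19 and -1.21 (adjusted p = 0.0637 and 0.0558). In carcinoma it passed without WT 3, WT 6 or adenoma 4 (log2 -1.39 to -1.20, adjusted p = 0.0373 to 0.0410).

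Ifi204 encodes a nuclear protein of the IFI200 family that senses DNA. Its brightest probe set read 196.8, 179.7, 91.2, 282.0 and 82.3 in carcinoma, 120.2, 68.1, 94.1, 62.3 and 138.7 in adenoma, and 109.3 to 291.3 with a median of 236.4 in WT. Only WT 5 fell within the adenoma range, and carcinoma spread across both groups. The gene was 2.27-fold lower in adenoma (log2 -1.18 ± 0.35, limma adjusted p = 0.0441) and differed by -0.48 ± 0.35 in carcinoma (adjusted p = 0.423). Its other probe sets did not pass in adenoma, at -0.19 ± 0.44 and -0.59 ± 0.25 in a fit over all probe sets (adjusted p = 0.831 and 0.168). The adenoma call was lost in 19 of the 27 alternatives. The value moved most with the Gapdh covariate (log2 -0.42, adjusted p = 0.858) and with the mean of the 3 probe sets (log2 -0.65, adjusted p = 0.101). It was -0.89 after quantile normalization (adjusted p = 0.207) and with aligned array medians (adjusted p = 0.180), -1.45 with the spike-in covariate (adjusted p = 0.0728) and -1.19 with WT reduced to arrays 3 and 6 (adjusted p = 0.269). Floors at the 10th and 40th percentile also ended the call (adjusted p = 0.0618 and 0.0612). Removing carcinoma 2, any of adenoma 1, 2, 3 and 4, or any of WT 1, 2, 3, 4 and 6 also ended it (log2 -1.28 to -1.04, adjusted p = 0.0549 to 0.109). The IFI200 genes are close copies that lie side by side, the suffix of the brightest probe set marks one that can bind several family members, and a further probe set that the annotation shares among Ifi204, Ifi205, Ifi211 and Mndal was left out.

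**Figure D2:**
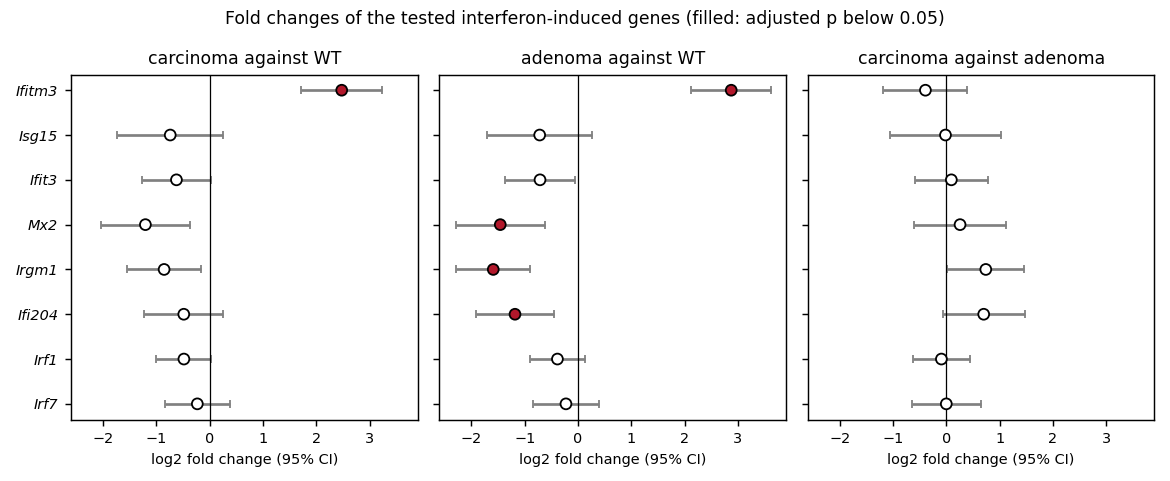
Log2 fold changes (points) with 95% intervals (bars) of the 8 genes tested, from limma over all 16 arrays; filled points passed an adjusted p of 0.05 over all genes. Ifitm3 stands at 2.48 in carcinoma and 2.87 in adenoma against WT, while the other 7 lie below 0 in both.

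Neither transcription factor of the group passed. Irf1, the factor through which interferon-gamma turns on antigen presentation genes, had signals of 682.0, 476.5, 612.8, 404.0 and 682.7 in carcinoma, 484.7, 600.6, 684.3, 682.5 and 562.0 in adenoma, and 545.3 to 1147.1 with a median of 804.3 in WT. The groups overlapped, and the highest 4 values were WT arrays. Irf1 differed by -0.48 ± 0.25 in carcinoma (limma adjusted p = 0.241) and by -0.39 ± 0.25 in adenoma (adjusted p = 0.368). Irf7, the main factor for the induction of interferon-alpha genes, differed by -0.23 ± 0.29 in both (adjusted p = 0.665 in carcinoma and 0.679 in adenoma). Its brighter probe set read 186.3 to 360.9 in carcinoma, 198.6 to 312.2 in adenoma and 151.6 to 503.3 in WT. That probe set has the suffix that, as for Ifi204, marks one that can bind several genes of a family. The dimmer probe set of Irf7 did not follow it, at -0.63 ± 0.44 in carcinoma and 0.61 ± 0.44 in adenoma, and neither value passed (adjusted p = 0.411 and 0.433). For the dimmer probe set, carcinoma minus adenoma was -1.23 ± 0.46, at a limma unadjusted p of 0.0155, and did not pass after adjustment.

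Isg15, Ifit1 and Ifit3 are strongly induced by type I interferon, and here they lay close to the floor. Isg15, a ubiquitin-like protein that is attached to other proteins, read 62.9, 35.1, 35.2, 29.2 and 136.8 in carcinoma, 104.9, 87.5, 27.8, 24.1 and 29.7 in adenoma, and 35 to 374.7 with a median of 104.35 in WT. It was above the floor on 2 of 5 carcinoma, 2 of 5 adenoma and 4 of 6 WT arrays. Its differences of -0.74 ± 0.47 in carcinoma and -0.72 ± 0.47 in adenoma did not pass (limma adjusted p = 0.352 and 0.383). Ifit3, a partner of Ifit1 in binding foreign RNA, was above the floor on 2 carcinoma, 1 adenoma and 4 WT arrays. It read 7.8 to 80.3 in carcinoma, 10.7 to 67.5 in adenoma and 25.1 to 139.9 in WT. Its differences were -0.62 ± 0.31 and -0.71 ± 0.31 (adjusted p = 0.232 and 0.175). Ifit1 itself was above the floor on WT 5 alone, at 133.2, and was not tested. Its other readings were 3.2 to 24.5 in carcinoma, 11.8 to 46.0 in adenoma and 3.9 to 29.3 on the remaining WT arrays.

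Genes upstream of the response were read beside all genes. Of all genes, 9.05% passed in carcinoma against WT and 8.28% in adenoma against WT, and 58.9% and 59.9% lay below 0. Ifng, which encodes interferon-gamma, was at the floor on all arrays of the 3 groups and was not tested. Of 8 type I interferon genes tested, Ifna4 alone passed, 4.30-fold lower in carcinoma (log2 -2.10 ± 0.31, limma adjusted p = 0.000173) and 2.31-fold lower in adenoma (-1.21 ± 0.31, adjusted p = 0.0203). The adenoma call was lost without adenoma 1 or adenoma 5 (log2 -1.12 to -0.96, adjusted p = 0.0568 to 0.0688). It was also lost in 7 other settings, with the smallest value under the Gapdh covariate (log2 -0.87, adjusted p = 0.633), which ended the carcinoma call too (log2 -1.80, adjusted p = 0.1002). Of the 8 interferon genes, 8 lay below 0 in carcinoma and 7 in adenoma, with medians of -0.79 and -0.67. Interferon-alpha genes are near-identical copies, so a probe set may read several of them. Of the 8 receptor and signalling genes tested, Ifnar1, Ifnar2, Ifngr1, Ifngr2, Jak1, Jak2, Tyk2 and Irf9, 0 passed in either tumour by limma (1 in carcinoma and 2 in adenoma at an unadjusted p of 0.05). An unadjusted p of that size was common over all genes, as given above. The median of these receptor and signalling genes was -0.10 in carcinoma and 0.02 in adenoma. The 7 interferon regulatory factors tested all lay below 0 in each tumour, with medians of -0.48 in carcinoma and -0.39 in adenoma. Among them Irf8, a factor of myeloid and B cells, alone passed. It was 2.49-fold lower in carcinoma (-1.32 ± 0.29, limma adjusted p = 0.00633) and 2.57-fold lower in adenoma (-1.36 ± 0.29, adjusted p = 0.00523). With WT reduced to arrays 3 and 6, Irf8 was -1.06 in carcinoma and -1.10 in adenoma (adjusted p = 0.166 and 0.145). With the spike-in covariate it was -0.88 and -0.93 (adjusted p = 0.162 and 0.129), and the Gapdh covariate ended the adenoma call at -1.98 (adjusted p = 0.0610).

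Downstream, antiviral effectors were read beside all genes, of which 4.16% rose and 4.9% fell in carcinoma and 4.02% and 4.25% in adenoma. Of 20 effectors tested, 0 rose and 1 fell in carcinoma, with a median of -0.38, and 1 rose and 1 fell in adenoma, with a median of -0.33. These counts are near the shares of all genes. In carcinoma the gene that fell was Cmpk2, a mitochondrial nucleotide kinase, 2.73-fold lower (-1.45 ± 0.31, limma adjusted p = 0.00557). Its call was lost with the Gapdh covariate (-1.43, adjusted p = 0.249), the spike-in covariate (-1.21, adjusted p = 0.0953) and WT reduced to arrays 3 and 6 (-1.08, adjusted p = 0.212). In adenoma the exonuclease Isg20 was 4.50-fold higher (2.17 ± 0.48, adjusted p = 0.00771), the fall being Mx2. The Isg20 call was lost with the Gapdh covariate (1.25, adjusted p = 0.648) and with WT reduced to arrays 3 and 6 (1.84, adjusted p = 0.176). Isg20 differed by 1.42 in carcinoma without passing (adjusted p = 0.0742). Of 8 interferon-gamma induced GTPases, Irgm1 alone passed, in adenoma, although 7 of the 8 lay below 0 in each tumour, with medians of -0.81 in carcinoma and -0.65 in adenoma. At an unadjusted p of 0.05, 4 of the 8 passed in carcinoma and 3 in adenoma, a size of p that was common over all genes. For all genes, 58.9% lay below 0 in carcinoma and 59.9% in adenoma. Of 10 negative regulators tested, 1 fell in carcinoma and 2 in adenoma, beside 4.9% and 4.25% of all genes. The medians of the 10 were 0.01 in carcinoma and -0.24 in adenoma, with 6 and 3 of them above 0. Socs3 differed by 1.04 in carcinoma and 0.83 in adenoma and did not pass (limma adjusted p = 0.0607 and 0.143). The genes that fell were Socs2 and Cish, both feedback inhibitors of cytokine signalling. Socs2 fell in carcinoma (-1.07 ± 0.24, adjusted p = 0.00760) and in adenoma (-1.37 ± 0.24, adjusted p = 0.00116). Both Socs2 calls were lost with the Gapdh covariate (carcinoma -1.05, adenoma -1.34) and with WT reduced to arrays 3 and 6 (-1.03 and -1.33), and the carcinoma call with aligned medians (-0.75, adjusted p = 0.110). Cish fell in adenoma (-1.67 ± 0.44, adjusted p = 0.0239). The Cish call was lost without WT 4, adenoma 1, adenoma 2 or adenoma 3 (log2 -1.64 to -1.40, adjusted p = 0.0516 to 0.0686). It was also lost after quantile normalization (-1.35), with a floor at the 40th percentile (-1.01), with the Gapdh covariate (-2.10), with the spike-in covariate (-1.36) and with WT reduced to arrays 3 and 6 (-1.37), at adjusted p of 0.0699 to 0.331. Socs1, the inhibitor most closely tied to interferon signalling, differed by 0.11 in carcinoma and -0.03 in adenoma and did not pass (adjusted p = 0.878 and 0.973).

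A larger share fell among 17 other interferon-gamma response genes, most of them for antigen presentation. In each tumour group 9 of the 17 fell and 0 rose, with a median of -1.02 in carcinoma and -1.36 in adenoma. Over all genes tested, 4.9% fell in carcinoma and 4.25% in adenoma. The immunoproteasome subunit Psmb9 was 6.58-fold lower in carcinoma (log2 -2.72 ± 0.45, limma adjusted p = 0.000568), and B2m, the invariant chain of MHC class I, 3.60-fold lower (-1.85 ± 0.29, adjusted p = 0.000328). In adenoma, Psmb9 was 7.25-fold lower (-2.86 ± 0.45) and B2m 2.96-fold lower (-1.57 ± 0.29), with adjusted p of 0.000442 and 0.00173. The inflammatory caspase gene Casp4 was 2.79-fold lower in carcinoma (-1.48 ± 0.30) and 2.57-fold lower in adenoma (-1.36 ± 0.30). The chemokine genes Cxcl9 and Cxcl10, which answer interferon-gamma in many cell types, lay between -0.15 and 0.04 and did not pass. Without single arrays, 8 to 9 of the 17 fell in carcinoma and 7 to 10 in adenoma. The spike-in covariate ended the Casp4 calls, at -1.04 in carcinoma and -0.93 in adenoma (limma adjusted p = 0.116 and 0.160). Psmb9 and B2m kept theirs with it. With WT reduced to arrays 3 and 6, 1 of the 17 fell in carcinoma and 0 in adenoma, with medians of -0.569 and -1.001. Psmb9 lost its calls in this setting alone, at -2.64 and -2.78 (limma adjusted p = 0.0654 and 0.0540). A Gapdh covariate left 1 of the 17 lower in each tumour, with medians of -1.30 and -1.20. The Gapdh ratios of WT and the tumours barely overlapped, so this covariate and the groups cannot be told apart. Between carcinoma and adenoma, 0 genes of any of these lists passed by limma.

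**Figure D3:**
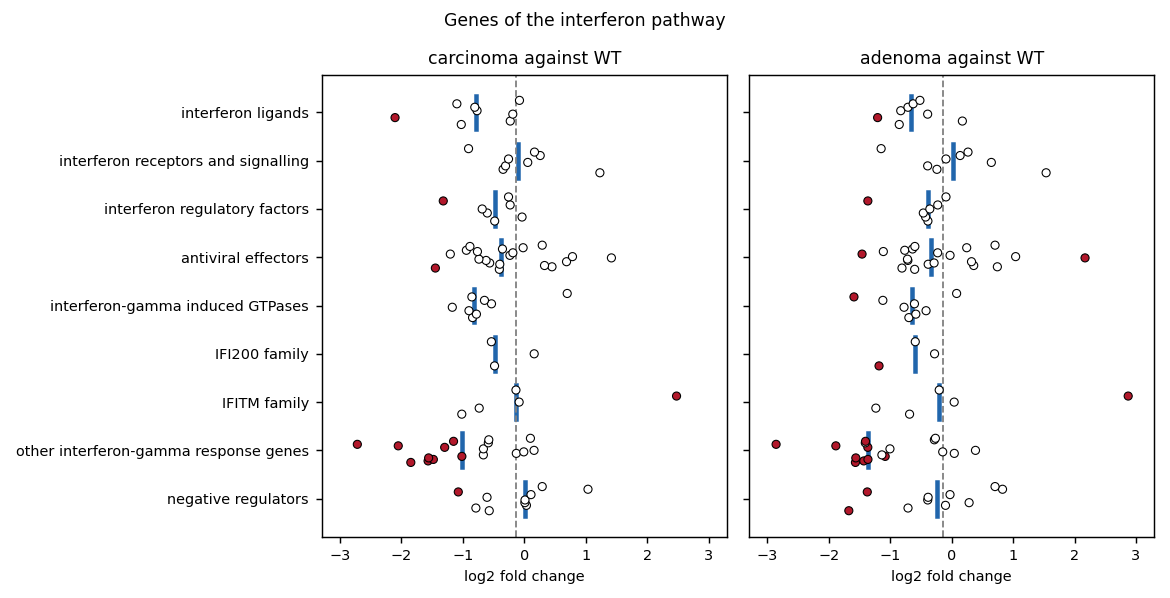
Log2 fold changes of single genes (points; filled where the adjusted p was below 0.05) in 9 interferon lists, with each list's median as a bar and the median of all genes, -0.14 in both comparisons, as a dashed line. The list of other interferon-gamma response genes holds 9 filled points below 0 in each panel, and Ifitm3 is the filled point at the far right.

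Markers of lymphocytes were read beside the genes that fell. Over all genes tested, 4.9% fell in carcinoma and 4.25% in adenoma. The summed signal of 11 T and NK cell markers was 711.5 to 1227.8 in carcinoma, 825.8 to 1173.0 in adenoma and 855.4 to 1801.2 in WT. Of the 8 that were tested, Il2rb alone passed, lower in carcinoma (log2 -1.22 ± 0.30) and in adenoma (log2 -1.80 ± 0.30). Cd3e and Cd3g were at the floor on all arrays of both tumour groups, as were Cd8a in carcinoma and Cd8b1 in adenoma, and in WT none of the 11 was at the floor on every array. The markers not tested exceeded the floor on fewer than 5 of the 16 arrays. Cd3e differed by -0.31 in each tumour and did not pass (limma adjusted p = 0.379 in carcinoma and 0.393 in adenoma). Of the 8 tested, 7 lay below 0 in each tumour, and 1 above it, Cd4 in carcinoma (0.09) and Gzmb in adenoma (0.57). The 6 B and plasma cell markers summed to 828.4 to 1562.2 in carcinoma, 668.7 to 1020.6 in adenoma and 1442.5 to 2344.5 in WT, and of the 5 tested, 1 fell in carcinoma and 3 in adenoma. The part of these cells in the falls of Irgm1, Mx2, Ifi204, Irf8 and the antigen presentation genes was not tested.

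Markers of stromal and myeloid cells were read beside the rise of Ifitm3. Over all genes tested, 4.16% rose in carcinoma and 4.02% in adenoma. The 9 fibroblast markers summed to 9244.2 to 17380.8 in carcinoma, 6789.3 to 10331.1 in adenoma and 4924.8 to 9702.5 in WT. Of 8 tested, 2 rose in carcinoma (Col1a1 and Dcn) and 0 in adenoma. In carcinoma against WT, 6 of the 8 lay above 0 and 2 below, Vim (-0.58) and Col1a2 (-0.30). In adenoma against WT, 5 lay above 0 and 3 below, Lum (-0.38), Col1a2 (-0.32) and Vim (-0.08). The 8 endothelial markers summed to 3631.9 to 11159.6 in carcinoma, 4369.3 to 10719.4 in adenoma and 2964.8 to 6146.6 in WT. Of the 8, 0 passed in carcinoma against WT, where 4 lay above 0 and 4 below. In adenoma against WT, Cdh5 alone passed, higher (2.17 ± 0.32). There 6 of the 8 lay above 0 and 2 below, Pecam1 (-0.55) and Tie1 (-0.45). The summed signal of the 11 macrophage and neutrophil markers overlapped between all groups. It was 9437.3 to 15912.2 in carcinoma, 7112.3 to 13898.1 in adenoma and 4862.3 to 19542.6 in WT. Of the 10 tested, 0 passed in any comparison. Against WT, 7 lay above 0 in carcinoma and 4 in adenoma, and 10 did in carcinoma against adenoma. For all genes, the shares below 0 in these 3 comparisons were 58.9%, 59.9% and 49.1%. The defining gene Itgam was at the floor on all arrays of all groups. The part of these cells in the rise of Ifitm3 was not tested.

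Across the 16 arrays, the signal of Ifitm3 followed most closely that of the chaperone Clu (Pearson r = 0.95), the membrane protease Adam8 (0.93) and the transcriptional cofactor Eya2 (0.93). Irgm1 followed Ntsr2 (0.88), Amelx (0.87) and Gm20362 (0.87), and Mx2 followed the transglutaminase Tgm2 (0.89), Ndufa10 (0.88) and Procr (0.87). The closest genes to Ifi204 were Sncg (0.80), Dstn (0.79) and Cav1 (0.78). These values describe the same 16 arrays, whose groups differ in many genes. Ifitm3 and Irgm1 had an r of -0.64 over all arrays and 0.24 after each group's mean was taken away, and for Irgm1 and Mx2 these were 0.60 and 0.14. The first pair thus changed sign and the second was weaker within groups. Other pairs of the tested genes were not all weaker there. For Irf7 and Isg15 the values were 0.59 and 0.55, and for Irf1 and Ifit3 -0.07 and -0.59.

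**Figure D4:**
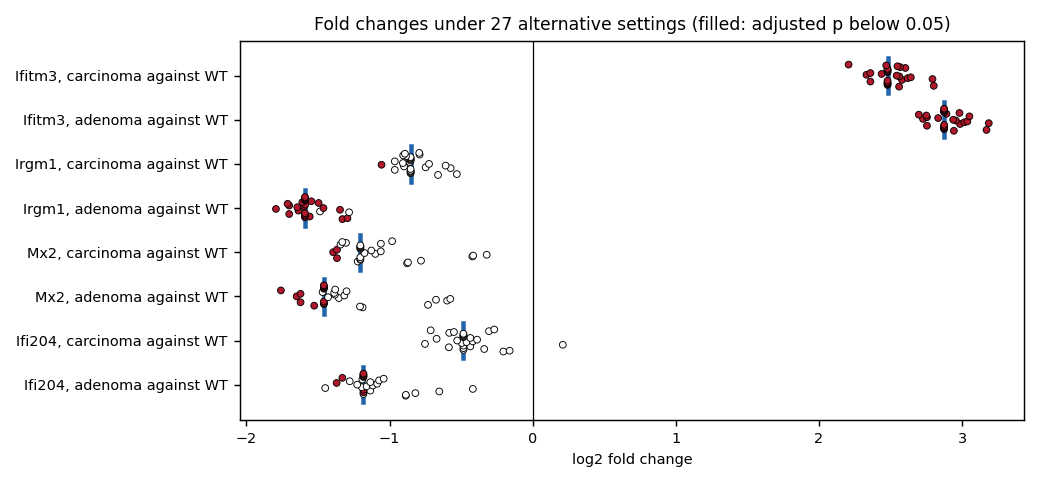
Log2 fold changes of the 4 genes that passed in adenoma, in both tumours against WT, under the 27 alternative settings (points; filled where the adjusted p was below 0.05) with the reported value as a bar. All points of Ifitm3 are filled and above 2, those of Irgm1 and Mx2 stay below 0, and those of Ifi204 are below 0 except for 1 setting in carcinoma, at 0.21.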

How the data were processed

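The authors deposited 1 linear intensity per array for each of 12488 probe sets. Per the labels' protocols, RNA of laser-captured cells went through 2 rounds of amplification; the sources used here do not name the software behind the values. With 2% trimmed from each end, array means were 500.3 to 500.4, so arrays were not scaled again. Median signal was 126.8 to 234.2. The number of arrays limits the precision.

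Values under the 25th percentile (46.9) were raised to it and log2 was taken. The 66 control probe sets were left out. Symbols came from the platform annotation, updated by Entrez identifier. Each gene was represented by its brightest probe set on average, and the test took the 7455 genes that exceeded the floor on 5 or more of 16 arrays. limma 3.58.1 in R 4.3.3 fitted the 3 groups together (13 residual degrees of freedom), two-sided, with Benjamini-Hochberg adjustment over all genes. Probe sets were fitted likewise (10563). The fit was tested on simulated data and missed most of the smaller differences there, so a gene that did not pass may still differ. Alternatives were scaling, floor, filter, probe set summary, covariates, a replicate block, 2 groups alone and single arrays left out. Named were the 9 genes, up to 6 genes past the threshold per list and the 3 genes most like each called one. The IFITM relatives, Mx1, Socs1, Socs3, Cxcl9, Cxcl10 and the markers were named after their values were seen. RefSeq tables (GRCm38.p6) gave names and promoters. The genes, lists and alternatives were chosen with earlier results of these data known. The motif search and the repeats for pathway genes were added after seeing the data. Figures were drawn with matplotlib 3.10.9.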

Additional observations from a re-analysis of the deposited data

Results flagged for a closer look

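In 7 of 34 sets of arrays (a probe set in a group), 1 array stood apart from the others of its group by Dixon's test on the floored log2 scale, a rule that chance meets in about 1 of 20 sets of continuous values. That rate does not hold here: in 4 of the 7, all other arrays of the group were at the floor, so that any array above it stands apart by construction. Ifit1 read 133.2 on WT 5, with the other WT arrays at the floor. Ifit3 read 67.5 on adenoma 1, the other adenoma arrays being at the floor, and 80.3 on carcinoma 2, ahead of the next carcinoma array at 54.1. Isg15 read 136.8 on carcinoma 5, ahead of 62.9. The 2 dimmer Ifi204 probe sets read 62.1 on carcinoma 5 and 72.0 on adenoma 2, again above arrays at the floor. The brighter Irf7 probe set read 198.6 on adenoma 2, below the next adenoma array at 283.5.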

How the results depend on the processing

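The 27 alternatives were 11 settings and the leaving out of each of the 16 arrays. In adenoma against WT, 2 of the interferon-induced genes passed, in place of 4, with quantile normalization, aligned array medians, a floor at the 40th percentile or arrays WT 1, WT 2, WT 4 and WT 5 left out, and 1 with the Gapdh ratio or the spike-in signal as a covariate. Without single arrays, 2 to 4 passed. In carcinoma against WT, 1 passed, or 2 with the replicate block, and 1 to 2 without single arrays. Of all genes, 617 passed in adenoma, against 70 with the Gapdh covariate, 398 with the spike-in covariate, 196 without the 4 WT arrays and 384 to 681 without single arrays (384 without adenoma 5). In carcinoma these were 675, against 100, 382, 217 and 494 to 775. Between carcinoma and adenoma 2 genes passed, 0 with a floor at the 10th percentile, 5 with a floor at the 40th percentile, with only those 2 groups or without the 4 WT arrays, and 1 to 5 without single arrays. Of the calls, 45.9% in carcinoma and 48.6% in adenoma were higher, 58.8% and 62.6% after quantile normalization, and 73.7% and 75.8% with aligned medians. The cause of these changes was not tested.

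Among the 9 genes and the called pathway genes, sign changes touched only values that did not pass. In carcinoma against WT, Irf7 was 0.093 with aligned medians, 0.19 with the Gapdh covariate, 0.13 with the spike-in covariate and 0.33 without the 4 WT arrays, Isg15 was 0.078 and 0.39 with the last 2, and Ifi204 was 0.21 with the Gapdh covariate. In adenoma against WT, Irf7 was 0.070 with aligned medians, 0.19 with the mean of probe sets, 0.24 with the Gapdh covariate, 0.13 with the spike-in covariate and 0.33 without the 4 WT arrays, and Isg15 was 0.091 and 0.41 with the last 2. In carcinoma against adenoma, Irf7 was 0.020 after quantile normalization and 0.023 with aligned medians, Isg15 was 0.083 and 0.017 with these and 0.15 with a floor at the 10th percentile, and Mx2 was -0.049 with a floor at the 40th percentile. Without single arrays, Irf7 ran over -0.12 to 0.13, Isg15 over -0.31 to 0.17, Ifit3 over -0.054 (without carcinoma 2) to 0.20 and Irf1 over -0.17 to 0.022 (without carcinoma 4).

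The labels do not say that replicate numbers pair arrays. Over 15 same-numbered pairs the correlation of deviations from group means was -0.27 to 0.40 (7 over 0.1). Its median was 0.096, against -0.026 for arrays of different numbers. These values do not settle whether the numbers are pairs, and since no label says so they were not taken as such. With the replicate block 842 genes passed in carcinoma, 728 in adenoma and 2 between them, Mx2 passed in carcinoma (log2 -1.37), and Ifi204 no longer passed in adenoma (log2 -1.13, adjusted p = 0.0719), which left 3 of the 9 genes there.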
